A study of Mus musculus with 6 samples.

Results

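S100 proteins and annexins are large families of calcium-binding proteins that animal cells keep in the cytosol and at the inner face of their membranes. The genes described here were set by a rule on symbols, which was chosen with earlier results of these data known. The rule takes every measured gene whose symbol is S100a or Anxa followed by a number and nothing more. It adds S100g, S100z, S100pbp, Calb1, Calb2, Calml4 and Calm4. Of the 19938 genes measured, 32 met this rule, namely 15 S100 genes, 12 annexins, 4 other EF-hand genes and S100pbp, which encodes a protein that binds an S100 protein. All 32 are described, and no filter on level removed any.

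RNA was measured on Affymetrix Mouse Gene ST arrays in the intestine of E14.5 mouse embryos, an age that precedes villi, from a segment about 1.5 cm anterior to the cecum. The mice were of mixed strain, partly C57Bl/6. One group was Klf5D/D, in which the gene for the epithelial transcription factor KLF5 was deleted, and the control group was Klf5wt/wtShhEGFP/Cre+. As background, the ShhEGFP/Cre allele places a fusion of green fluorescent protein and Cre recombinase in the Shh gene, which the gut epithelium expresses, so carriers have one altered Shh copy. The label of the deleted group names no Cre. There were 3 arrays per group, and every array carried RNA pooled from 2 intestines. The study asked which genes depend on KLF5 before villi and mature epithelium form.

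The deposited values are log2 signals, so a difference of 1 is a 2-fold change. Klf5 had signals of 10.24, 10.49 and 10.34 in deleted replicates 1 to 3, the order kept throughout, against 11.55, 11.74 and 11.77 in control replicates 1 to 3, a log2 difference of −1.33 (SE 0.08, adjusted p = 9.62e-05). The intestinal genes Cdx2 and Vil1 were measured well above the median gene in every array, Cdx2 at 10.73 or more and Vil1 at 9.34 or more. Both were lower with the deletion, with log2 differences of −0.62 (SE 0.08, limma adjusted p = 0.0022) for Cdx2 and −1.46 (SE 0.11, limma adjusted p = 0.000189) for Vil1. All 14 epithelial marker genes fell, with a median log2 difference of −0.98, and their summed linear signal was 19798 to 23445 in the deleted arrays and 40967 to 42164 in the controls. Fewer epithelial cells and less RNA per epithelial cell cannot be told apart in such whole-tissue samples. The pools also differed in sex: the male share estimated from Y-linked genes was 95.0% to 103% in the deleted pools, against 0%, 47.1% and 40.8% in control replicates 1 to 3 on a scale set to 0 at the lowest array.

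Both families sense calcium, in different ways. An S100 protein is usually a dimer whose EF-hand loops open a binding face for partner proteins when calcium is bound, whereas an annexin has no EF-hand and uses calcium to dock onto acidic membrane lipids. Some members work as pairs, such as S100A10 with annexin A2 and S100A11 with annexin A1. In the intestine the group is known for calcium absorption, where S100g carries calcium across the enterocyte, and for the apical membrane, where annexin A13 and the calmodulin-like protein CALML4 are found.

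Of the 32 genes, 11 fell and 1 rose in the Klf5-deleted intestine at a Benjamini-Hochberg adjusted p of 0.05 in limma. Over all genes measured, 17.5% passed, 8.58% lower and 8.95% higher. At an unadjusted p under 0.05 in limma, 2668 of the 19938 were lower and 3431 higher, against 15 and 2 of the 32. The 5 largest falls were those of Anxa13, S100g, S100a6, Anxa4 and Calml4, all to less than 50% of the control signal. At least 2-fold falls that passed made up 1.13% of all genes. The gene that rose was Anxa6, to 114% of control. The median log2 difference of the 32 genes was −0.13, against 0.02 over all genes. The groups did not overlap for 17 of the 32 (15 lower, 2 higher), against 36.0% of all genes (15.9% lower, 20.1% higher). Of the 15 members among the 50% of genes with the higher mean signal, 8 fell and 1 rose, against 25.8% of those genes in either direction and 12.3% lower. With 3 arrays against 3, the smallest p of an exact two-sided permutation test is 0.1, the value it gave for each of these 17 genes.

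**Figure D1:**
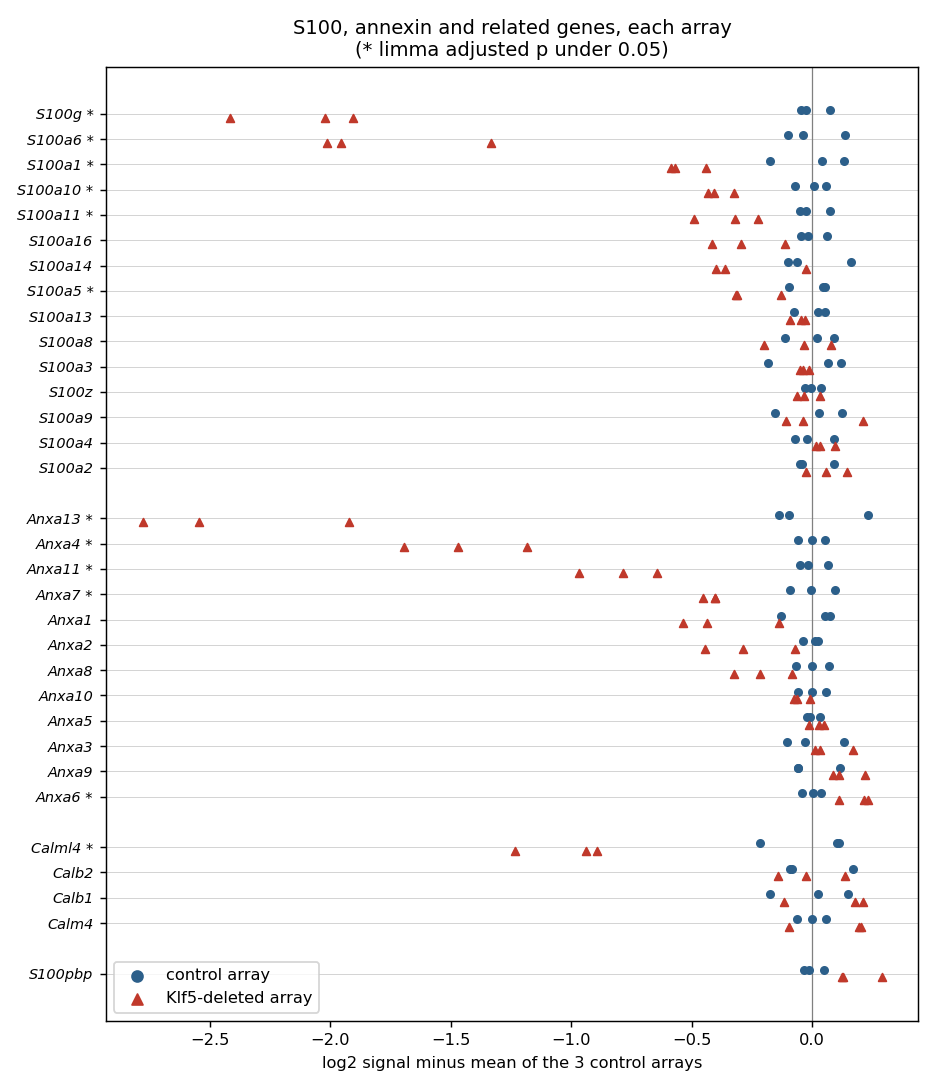
Each array's log2 signal for the 32 genes, minus the mean of the 3 control arrays (circles: control; triangles: Klf5-deleted; asterisks: limma adjusted p under 0.05). S100g, S100a6, Anxa13, Anxa4 and Calml4 lie far to the left of their controls, and most other genes lie near 0.

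The calls depended on how the sex of the pools was treated. With the male share as a covariate, 0 of the 12 called genes passed in limma. Of all 19938 genes, 83 passed in that fit, against 3496 without the covariate. All 12 called genes kept their sign, and the standard errors over all genes were larger by a median factor of 2.63. The log2 differences in that fit were −2.73 (SE 0.56, adjusted p = 0.137) for Anxa13, −2.19 (SE 0.34, adjusted p = 0.0736) for S100g, −2.08 (SE 0.46, adjusted p = 0.154) for S100a6 and −1.46 (SE 0.33, adjusted p = 0.157) for Anxa4. Calml4 moved from −1.02 to −0.78 (SE 0.31, adjusted p = 0.330). Of the 11 genes that fell, 8 had a larger and 3 a smaller fitted fall than without the covariate (Calml4, S100a1 and S100a5 the smaller). Since every deleted pool read as nearly all male, sex and genotype cannot be fully told apart here.

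Among the S100 genes, 6 of 15 fell and 0 rose in limma (7 lower and 0 higher at an unadjusted p under 0.05). S100g encodes calbindin-D9k, the calcium carrier of absorptive enterocytes that vitamin D induces. Its signal was 6.89, 7.40 and 7.28 with the deletion, and 9.26, 9.38 and 9.28 without it. Every deleted array was below every control. The log2 difference of −2.11 (SE 0.12, limma adjusted p = 7.21e-05, n = 3 per group) left 23.1% of the control signal. S100g lies on chromosome X, and the part of the pools' sex in its values was not tested within the deleted group, where the male shares were all near 100%.

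S100a6 encodes calcyclin, an S100 protein of epithelia and fibroblasts that rises in dividing cells. It read 8.18, 7.56 and 7.50 in the deleted arrays and 9.42, 9.48 and 9.65 in the controls. The groups were far apart, and deleted replicate 1 was the highest of its group. The log2 difference was −1.77 (SE 0.17, adjusted p = 0.000646), which left 29.4% of the control signal. S100a6 is also made by mesothelium, whose markers moved the other way: 7 of 10 rose and 2 fell (Msln and Krt7), and their summed signal was 13216 in deleted replicate 1, 10922 and 10133 in replicates 2 and 3, and 7338 to 9358 in the controls. The part of the mesothelium in the S100a6 values was not tested.

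KLF proteins bind CACCC and GC boxes in DNA, so the promoter windows of S100g, S100a6 and Anxa4 are shown. That of S100a4, a chromosomal neighbour of S100a6 that did not pass, is added. The windows come from RefSeq (GRCm38.p6), where 24 of the 32 genes matched, Anxa13 not among them. The 200 bases before the transcript start are given on the gene's strand, 5′ to 3′, and capitals mark CCACCC or CCGCCC on either strand.
S100g (chrX:162964600-162964799, minus strand): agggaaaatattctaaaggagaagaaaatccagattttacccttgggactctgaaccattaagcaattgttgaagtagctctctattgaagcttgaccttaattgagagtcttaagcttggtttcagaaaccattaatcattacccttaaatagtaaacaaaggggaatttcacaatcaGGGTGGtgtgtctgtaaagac
S100a6 (chr3:90612694-90612893, plus strand): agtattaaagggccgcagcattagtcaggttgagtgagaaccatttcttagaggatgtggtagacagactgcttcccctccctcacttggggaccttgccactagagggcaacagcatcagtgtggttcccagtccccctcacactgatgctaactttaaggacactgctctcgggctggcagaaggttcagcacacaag
S100a4 (chr3:90603570-90603769, plus strand): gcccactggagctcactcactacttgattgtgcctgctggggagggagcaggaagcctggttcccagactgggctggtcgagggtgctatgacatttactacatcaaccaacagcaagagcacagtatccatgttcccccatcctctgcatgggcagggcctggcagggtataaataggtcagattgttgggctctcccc
Anxa4 (chr6:86793585-86793784, minus strand): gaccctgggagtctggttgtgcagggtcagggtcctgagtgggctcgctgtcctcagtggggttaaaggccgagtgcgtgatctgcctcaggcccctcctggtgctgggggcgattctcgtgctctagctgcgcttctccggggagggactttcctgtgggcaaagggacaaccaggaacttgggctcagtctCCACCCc

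In S100g the match begins 21 bases before the start, on the reverse strand as GGGTGG, and in Anxa4 it begins 7 bases before the start. The printed stretches of S100a6 and S100a4 hold neither CCACCC nor CCGCCC. That of S100a4 does hold the shorter run gggtg, which is CACCC on the reverse strand and was not searched for or marked. In full windows of 300 bases (250 before and 50 after the start), 9 of the 11 windows of called genes hold either string, as do 14 of the 21 windows of genes that were not called. These windows are not all separate, since those of S100a1 (called) and S100a13 (not called) share 204 bases. The windows of Anxa7 overlap each other, as do those of S100pbp. S100a4 has 1 CCACCC in its full window and S100a6 has neither string. The window of Calml4, which was not printed, has 1 CCGCCC. Of all 32851 RefSeq windows, 52.7% hold either string, 31.5% CCACCC and 35.7% CCGCCC. The strings were counted separately and can overlap each other. A match is only a run of letters, and binding by KLF5 was not measured here.

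S100a1 encodes a calcium sensor best known from heart and skeletal muscle. It read 9.51, 9.37 and 9.39 in the deleted arrays and 9.997, 10.09 and 9.78 in the controls, with no overlap, and fell by 0.53 (SE 0.09, adjusted p = 0.00583). Its head-to-head neighbour S100a13, an S100 protein involved in the release of FGF1, starts on the other strand with 104 bases between the starts in the RefSeq table. S100a13 read 8.72, 8.74 and 8.68 in the deleted arrays and 8.79, 8.69 and 8.82 in the controls, which overlap, for a log2 difference of −0.06 (SE 0.05, adjusted p = 0.542). The gap between the log2 differences of these neighbours was not tested.

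S100a10 encodes p11, an S100 protein that no longer binds calcium and holds a pair of annexin A2 molecules together. It read 12.66, 12.64 and 12.74 in the deleted arrays and 12.998, 13.08 and 13.13 in the controls, and fell by 0.39 (SE 0.05, adjusted p = 0.00328), to 76.5% of control. Its partner gene Anxa2 read 11.07, 10.70 and 10.85 against 11.15, 11.10 and 11.17. The 3 deleted arrays were also all lower for Anxa2, but its log2 difference of −0.27 (SE 0.09, adjusted p = 0.0853) did not pass. Without deleted replicate 1 it did (−0.37, adjusted p = 0.0122), as it did with array weights (adjusted p = 0.0321) or the lowest 50% of genes left out (adjusted p = 0.0455).

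S100a11 encodes calgizzarin, the partner of annexin A1. It read 12.38, 12.12 and 12.29 in the deleted arrays and 12.56, 12.68 and 12.58 in the controls, and fell by 0.34 (SE 0.07, adjusted p = 0.0195). A second row of the table under the same symbol gave −0.34 (SE 0.07) as well. Anxa1, a membrane-binding protein known for its anti-inflammatory action, read 8.05, 7.75 and 7.65 against 8.05, 8.26 and 8.24. Deleted replicate 1 was below control replicate 1 by less than 0.01, the other deleted arrays were lower, and the difference of −0.37 (SE 0.11, adjusted p = 0.0553) did not pass. Without deleted replicate 1 it did (−0.49, adjusted p = 0.00832), and it also passed with 4 other settings at the same threshold, such as median centring (adjusted p = 0.0498). The S100a11 call was lost without deleted replicate 3 or control replicate 2 or 3, with an adjusted p of up to 0.0741.

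S100a16, a widely expressed family member, shared this pattern, with 10.44, 10.13 and 10.25 in the deleted arrays and 10.61, 10.53 and 10.50 in the controls. The log2 difference of −0.27 (SE 0.08, adjusted p = 0.0539) missed the threshold. It passed without deleted replicate 1 (−0.36, adjusted p = 0.0124) and with 5 other settings at that threshold, such as median centring (adjusted p = 0.0435). Deleted replicate 1 had both the highest summed mesothelial and the lowest summed epithelial signal of its group. Over all 32 genes, the highest deleted value was in replicate 1 for 10 genes and the lowest was there for 16. Among the 11 genes that fell, replicate 1 was highest for 3 (S100a6, S100a1 and S100a11) and lowest for 5 (Anxa13, S100g, Anxa4, Calml4 and Anxa11). The part of either cell type in these values was not tested.

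**Figure D2:**
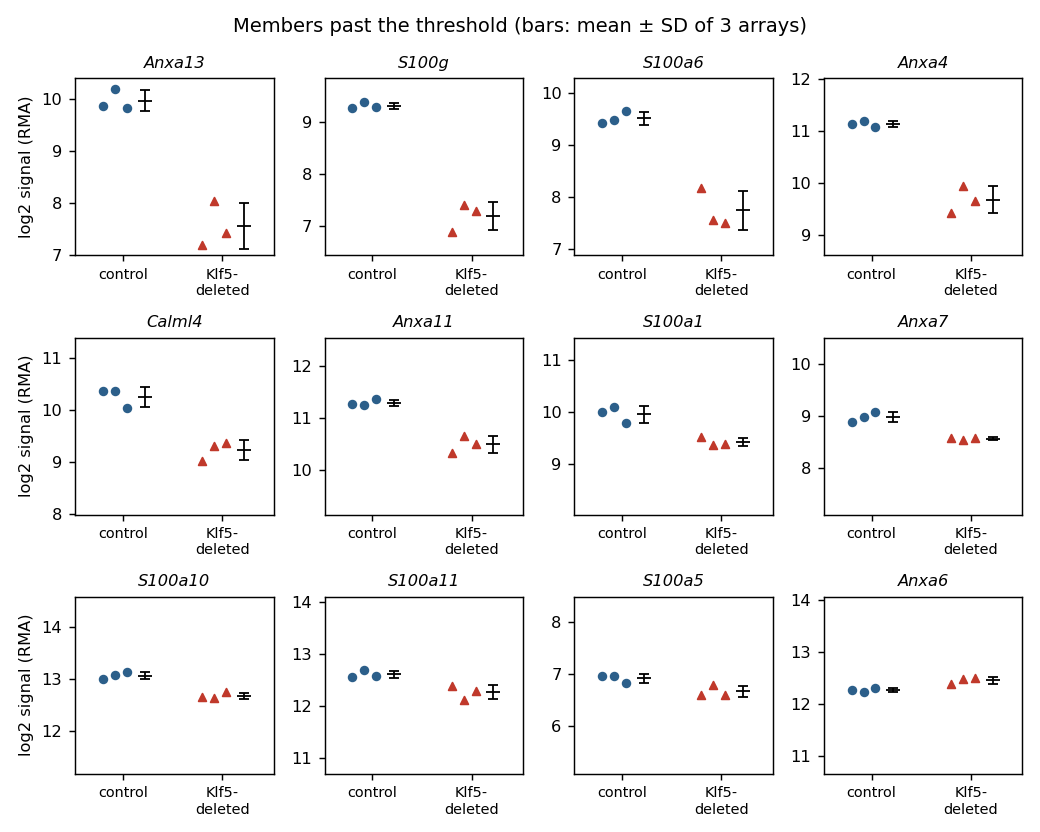
The log2 signal of the 12 genes past the threshold, in each array of the control group (circles) and of the Klf5-deleted group (triangles), with bars for the mean ± SD of 3 arrays; every panel spans the same range of log2 units. Anxa13 and S100g show the widest gaps, and Anxa6 is the one gene with higher deleted arrays.

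S100a5, known from olfactory neurons, read 6.61, 6.79 and 6.60 in the deleted arrays and 6.97, 6.96 and 6.82 in the controls. The difference of −0.25 (SE 0.07, adjusted p = 0.0472) lay just inside the threshold, and it was lost without deleted replicate 1 or 3 or control replicate 1 or 2, with an adjusted p of up to 0.147. S100a5 is among the lowest 25% of genes by signal, where changes are understated on such arrays. S100a14, an S100 protein of epithelia, was at −0.26 (SE 0.11, adjusted p = 0.170), with 5.80, 5.84 and 6.17 in the deleted arrays and 6.36, 6.10 and 6.14 in the controls, which overlap. It passed without deleted replicate 3 (−0.38, adjusted p = 0.0406).

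The other 6 S100 genes did not pass and lay between −0.05 (S100a8) and 0.06 (S100a2). They include S100a8 and S100a9, the calprotectin subunits of neutrophils, at 5.87, 6.15 and 6.03 against 6.16, 6.09 and 5.95 for S100a8 and at 6.75, 7.07 and 6.82 against 6.98, 6.71 and 6.89 for S100a9. The arrays of both genes overlap between groups. Of 10 neutrophil markers 1 fell and 0 rose in limma (3 lower and 0 higher at an unadjusted p under 0.05), and their summed signal was 996 to 1186 in the deleted arrays and 1000.3 to 1157 in the controls. S100a4, a marker of fibroblasts and motile cells, was at 0.05 (SE 0.06, adjusted p = 0.654), with 6.47, 6.49 and 6.55 against 6.55, 6.38 and 6.44. S100a3 and S100z were at −0.03 (SE 0.08) and −0.02 (SE 0.05).

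In the genome, 13 of the S100 genes lie in a cluster on chromosome 3. Between its first and last member lie 49 other measured genes, many of them genes of the skin barrier and one of them S100a7a, whose symbol falls outside the rule (log2 difference 0.00, SE 0.05, adjusted p = 0.967). Of the 13 members 5 fell, and of the 49 others 1 fell and 1 rose in limma. Over all genes measured, 8.58% fell and 8.95% rose. The gene that fell was Sprr1a, which encodes a cornified envelope precursor, with 7.44, 7.73 and 7.68 in the deleted arrays and 8.53, 8.57 and 8.43 in the controls (−0.89, SE 0.08, adjusted p = 0.000486). The gene that rose was Lce6a (0.29, SE 0.07, adjusted p = 0.0299). Both were picked out after their values were seen. Many of the 49 had low signals, with 37 of them in the lowest 25% of all genes, so small changes there could go unseen. Of all 4985 genes in that class, 152 passed in either direction. Among the 5 members that fell, only S100a5 was in it. The counts of members and neighbours are therefore not from genes of like signal, and the difference between them was not tested.

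**Figure D3:**
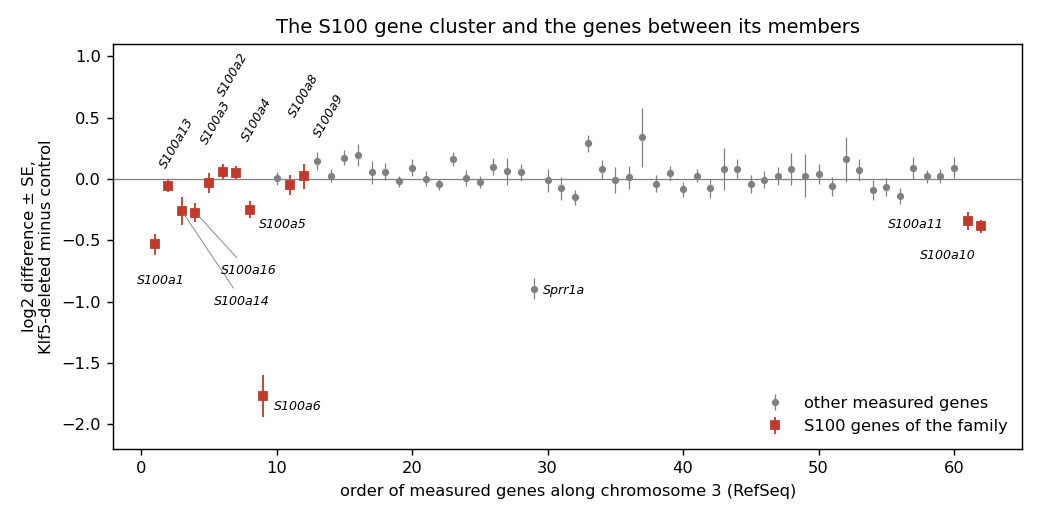
Log2 difference (Klf5-deleted minus control, ± SE from limma, 3 arrays per group) of the measured genes in their order along the chromosome 3 cluster, with S100 genes as squares and the genes between them as circles. S100a6 at −1.77 stands far below its neighbours S100a5 at −0.25 and S100a4 at 0.05, and Sprr1a at −0.89 is the lowest of the genes in between.

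Among the annexins, 4 of 12 fell and 1 rose. Anxa13, the annexin that intestinal epithelium makes and that attaches to apical membranes, showed the largest fall of the 32 genes. It read 7.19, 8.04 and 7.42 in the deleted arrays and 9.87, 10.20 and 9.83 in the controls. The spread within the deleted arrays was wide (SD 0.44), yet the highest of them was far below the lowest control. The log2 difference of −2.42 (SE 0.21, adjusted p = 0.000378) left 18.7% of the control signal.

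Anxa4 encodes an annexin of secretory and absorptive epithelia. It read 9.44, 9.95 and 9.66 in the deleted arrays and 11.13, 11.19 and 11.07 in the controls, and fell by 1.45 (SE 0.12, adjusted p = 0.000275), to 36.6% of control. Anxa11, an annexin with a long amino-terminal tail that links organelles and RNA granules, read 10.32, 10.65 and 10.51 against 11.27, 11.24 and 11.36. It fell by 0.80 (SE 0.08, adjusted p = 0.00087). Anxa7, also known as synexin, read 8.58, 8.53 and 8.58 against 8.89, 8.98 and 9.08, and fell by 0.42 (SE 0.06, adjusted p = 0.00304). None of these groups overlapped, and the calls of Anxa13, Anxa4, Anxa11 and Anxa7 were kept in each of the 6 fits that left out an array.

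Anxa6, the annexin whose protein carries a doubled core, read 12.38, 12.48 and 12.50 in the deleted arrays and 12.27, 12.23 and 12.31 in the controls. The rise of 0.19 (SE 0.05, adjusted p = 0.0438) held in 1 of 6 fits with an array left out, that without deleted replicate 1. In the other 5 the difference was 0.16 to 0.21 with an adjusted p of up to 0.144. Centring the arrays on their medians also lost the call (0.17, adjusted p = 0.0986), as did averaging with a second, dimmer row of the gene (0.10, adjusted p = 0.248). That row alone gave 0.01 (SE 0.07).

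Anxa5, the annexin used to stain exposed phosphatidylserine, was nearly level at 12.48, 12.42 and 12.46 in the deleted arrays against 12.46, 12.42 and 12.41 in the controls (0.02, SE 0.04, adjusted p = 0.795). Anxa3 read 10.16, 10.02 and 9.996 against 10.12, 9.88 and 9.95 (0.07, SE 0.07, adjusted p = 0.600). For both genes the groups overlap. Anxa8 was at −0.21 (SE 0.07, adjusted p = 0.0904) with every deleted array below the controls, and passed without deleted replicate 3 (−0.27, adjusted p = 0.0480). Anxa9 was at 0.14 (SE 0.07, adjusted p = 0.204), and Anxa10, known from stomach, at −0.05 (SE 0.05, adjusted p = 0.578).

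Of the remaining EF-hand genes, 1 of 4 fell. Calml4 encodes a calmodulin-like protein of the links that join neighbouring microvilli. It read 9.02, 9.31 and 9.36 in the deleted arrays and 10.36, 10.37 and 10.04 in the controls, and fell by 1.02 (SE 0.12, adjusted p = 0.00141), to 49.2% of control. Calb1 and Calb2, which encode the larger calcium buffers calbindin-D28k and calretinin of neurons, were at 0.09 (SE 0.11, adjusted p = 0.664) and −0.01 (SE 0.10, adjusted p = 0.959). Calb1 read 6.75, 7.04 and 7.07 against 6.69, 6.89 and 7.01, and the groups of both genes overlap. Of 9 enteric neuron markers 0 passed in limma (1 lower and 2 higher at an unadjusted p under 0.05). Calm4, a calmodulin relative of the epidermis, was at 0.10 (SE 0.09, adjusted p = 0.507).

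S100pbp, whose product binds an S100 protein in the nucleus, read 10.42, 10.26 and 10.25 in the deleted arrays and 10.11, 10.18 and 10.09 in the controls. All deleted arrays were higher, but the difference of 0.18 (SE 0.06, adjusted p = 0.0799) did not pass. It passed with the lowest 50% of genes left out (adjusted p = 0.0371) and with a robust variance and intensity trend (adjusted p = 0.0455).

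The falls were set against the shift of the epithelium itself by subtracting, array by array, the mean log2 signal of the 14 epithelial markers, which fell by 1.04. The single markers ran from −0.36 (Krt18) to −2.05 (Cdhr5), so a gene can fall more than the mean and still lie within their range. Of the 14 markers, 0 fell more than Anxa13 or S100g, 1 more than S100a6 (Cdhr5) and 3 more than Anxa4 (Cdhr5, Krt19 and Vil1). Of the 11 genes that had fallen, Anxa13, S100g, S100a6 and Anxa4 still lay lower in every deleted array after the subtraction. Each had fallen by more than the epithelial mean, so this restates the values above and is no separate result. The same was not asked of all genes. Anxa13 was lower by a further −1.38 (SE 0.24), S100g by −1.08 (SE 0.09), S100a6 by −0.73 (SE 0.31) and Anxa4 by −0.41 (SE 0.10). S100a6 reached only −0.13 in deleted replicate 1, against −0.99 and −1.07 in replicates 2 and 3. Calml4 overlapped between groups at 0.02 (SE 0.12). The other 6, S100a1, S100a5, S100a10, S100a11, Anxa7 and Anxa11, had fallen less than the epithelial mean, with Anxa11 at 0.24 (SE 0.06). Subtracting a fall raises any gene that fell less. These 6, the 20 genes that were not called and Anxa6 all lay higher in every deleted array after it. Of the 11 genes, which were picked by the same array values, the 10 without overlap here had p = 0.1 by exact permutation (two-sided). That is the smallest p that 3 arrays against 3 allow, and it was 1.0 for Calml4. These standard errors are from the 3 arrays per group without moderation.

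**Figure D4:**
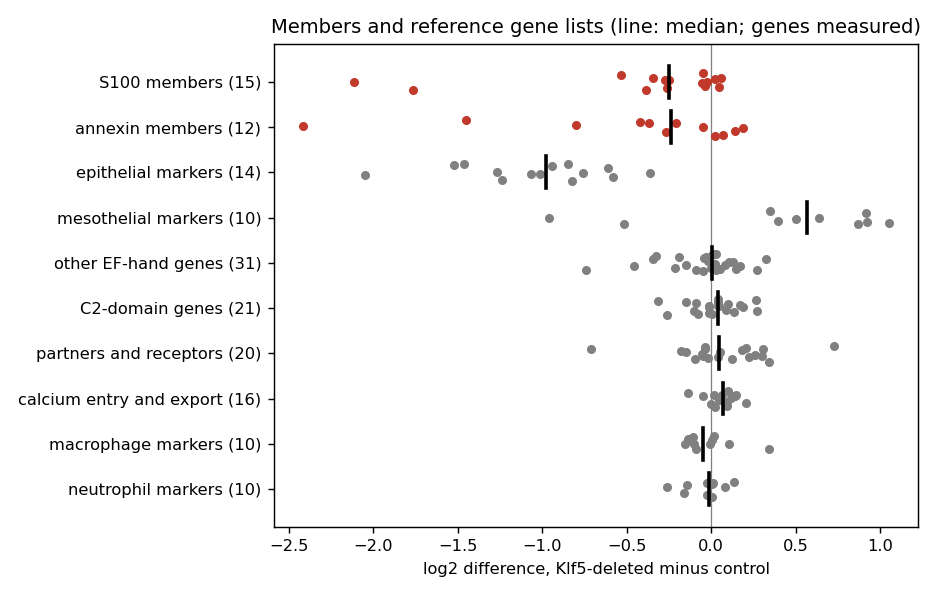
Log2 difference (Klf5-deleted minus control) of each S100 gene and annexin, of epithelial, mesothelial, macrophage and neutrophil markers, and of 4 lists of related calcium genes, with a line at each median. The medians are −0.25 for S100 genes, −0.24 for annexins, −0.98 for epithelial markers and 0.57 for mesothelial markers, and the related calcium lists lie at 0.01 to 0.07.

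Other calcium-binding and calcium-handling genes gave the setting of these changes. Of 31 measured genes of other EF-hand proteins, 4 fell and 2 rose, with a median of 0.01. Cib1, a calcium- and integrin-binding protein, fell by 0.74 (SE 0.04), from 10.29, 10.35 and 10.29 in the controls to 9.61, 9.55 and 9.55. Hpcal1, a neuronal calcium sensor protein, fell by 0.46 (SE 0.05), while Ncald of the same family rose by 0.27 (SE 0.05). Efhd2, an actin-binding EF-hand protein, fell by 0.34 (SE 0.07). The adjusted p of these 4 genes was at most 0.0134 in limma.

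Of 21 genes of C2-domain proteins, which bind membranes through calcium as annexins do, 2 fell and 1 rose, with a median of 0.04. The copine gene Cpne5 rose by 0.27 (SE 0.04, adjusted p = 0.00584), and Rasa4 and the synaptotagmin-like gene Sytl5 fell by 0.26 (SE 0.06, adjusted p = 0.0309) and 0.31 (SE 0.08, adjusted p = 0.0311). Fer1l4 did not pass (0.27, SE 0.08, adjusted p = 0.0504). Of 20 partners and receptors of S100 proteins and annexins, 2 fell and 3 rose, with a median of 0.05. Plgrkt, a plasminogen receptor, fell by 0.71 (SE 0.06, adjusted p = 0.000275), and Ahnak, the giant scaffold that binds the S100A10 and annexin A2 complex, rose by 0.30 (SE 0.05, adjusted p = 0.00622). The channel gene Kcnk3, whose product binds S100A10, rose by 0.26 (SE 0.04, adjusted p = 0.0054). Pdcd6ip fell by 0.18 (SE 0.04, adjusted p = 0.0270).

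Genes of calcium entry, export and storage, with some of their regulators, were set beside S100g. Of 16 such genes 0 fell and 1 rose in limma (1 lower and 2 higher at an unadjusted p under 0.05), with a median of 0.07. Of the 16, 8 were among the 50% of genes with the lower mean signal and 2 among the lowest 25%, so small changes there could go unseen. The gene that rose was the endoplasmic reticulum pump gene Atp2a3 (0.21, SE 0.05, adjusted p = 0.0329). Trpm6, a magnesium and calcium channel gene, was at 0.14 (SE 0.04, adjusted p = 0.0606), and the store-operated channel genes Orai1 and Orai2 were at −0.14 (SE 0.06, adjusted p = 0.154) and 0.15 (SE 0.07, adjusted p = 0.229). The difference between S100g and this list was not tested.

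Markers of other cell types were counted in the same way. Of 10 macrophage and 10 endothelial markers 0 passed in limma (0 lower and 1 higher at an unadjusted p under 0.05 in each list), and of 8 markers of stratified epithelium 0 passed, also unadjusted. Of 10 smooth muscle markers 2 rose, of 8 glial markers 3 rose and 1 fell, and of 9 red cell markers 2 rose, the embryonic globin genes Hba-x, to 185% of control, and Hbb-y, to 139%. The summed signal of the red cell markers was 17299 to 24023 in the deleted arrays and 11357 to 16584 in the controls, without overlap. These 2 globin genes were the brightest of the list in every array and so weigh most in the sum. For the other 7 red cell markers the groups overlapped.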

How the data were processed

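The deposited values are log2 signals, for which the submitters' processing notes name RMA and Affymetrix Expression Console 1.1. RMA makes the arrays' distributions alike, so a shift common to most genes is removed. No source used here gives the genome build behind the array. Of 35557 rows, 21789 had 1 gene symbol in the platform annotation, 1621 several and 12147 none. Gene IDs brought symbols up to date with RefSeq GRCm38.p6 (21698 rows matched), and the brightest row per gene was used, giving 19938 genes. Groups came from sample titles.

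Differences were tested with limma 3.58.1 (R 4.3.3; functions lmFit, eBayes; Benjamini-Hochberg over all genes, SE from the moderated variance), without a replicate block. The fit was tested on simulated data. No label says whether the pools came from separate litters, so p-values measure only the spread between these pools, which may be technical. Arrays have no read depth, and the number of arrays limits precision. The male share came from Eif2s3y, Kdm5d and Uty on the linear scale, setting the lowest array to 0% and the average deleted array to 100%. The members and lists were chosen with earlier results of these data known. Named are all members, and from each list of calcium genes up to 4 with the smallest p. Of 199 listed genes 186 were measured, and the others were not analysed here. The subtraction of the epithelial mean was added after the data were seen.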

Additional observations from a re-analysis of the deposited data

How the results depend on the processing

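The 18 alternatives were each array left out, a replicate block, repeated quantile normalization, centring on array medians, removal of the dimmest 25% or 50% of genes, a robust variance with intensity trend, array weights, the mean of a gene's rows, all rows tested, a threshold of 0.1, the male share as covariate and the platform's own symbols. The count of genes that fell (11 of 32) was 9 to 13 on leaving out an array and 0 with the male share; the other alternatives gave 9 to 15. The count that rose (1) was 0 to 1 on leaving out an array, 0 with the replicate block, median centring, the mean of rows, all rows tested or the male share, and 2 with the lowest 50% left out, the trend or the threshold of 0.1. Among annexins 4 to 6 fell on leaving out an array, 7 at the threshold of 0.1 and 0 with the male share, and 0 to 1 rose on leaving out an array, 0 with the block, median centring, mean of rows, all rows tested or the male share. Among S100 genes 4 to 6 fell and 0 rose on leaving out an array, and 0 fell with the male share. No called gene changed sign under any of these. The calls of 9 genes (Anxa13, S100g, S100a6, Anxa4, Calml4, Anxa11, S100a1, Anxa7 and S100a10) were kept wherever they were tested, other than with the male share; with the dimmest 50% removed, S100g and S100a6 were not tested. Same-numbered arrays did not deviate together (correlations of deviations −0.14, −0.27 and −0.03), so the numbers do not pair the arrays. Of all genes, 2008 passed with the replicate block and 83 with the male share, against 3496. With the block 9 of the 12 called genes kept their call. The cause of these shifts was not tested.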
